A study of Mus musculus with 6 samples.

Results

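The Gfi1 and Evi5 locus is a stretch of 240 kb on mouse chromosome 5, from 108.08 to 108.32 Mb in the mm9 build, in which T-bet binding was mapped in induced regulatory T cells (iTreg cells) by chromatin immunoprecipitation and sequencing (ChIP-seq). Its members were chosen by position: every peak that overlaps this stretch in any of the 3 deposited peak lists. There were 13 such peaks among the 8925 of the series, 9 of 7996 in wild-type (WT) replicate 1, 4 of 851 in WT replicate 2 and 0 of 78 in the T-bet knockout (KO) library. The locus was picked with its peaks known, so their number, positions and scores are described here and no test was made of them.

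The WT and KO cells were all labelled Balb/c iTreg cells and were treated alike. Naive CD4 T cells from mice aged 4 to 10 weeks were activated on plates coated with antibodies to CD3 and CD28, each at 10 µg/ml, and cultured for 7 days with TGF-β1 at 33 ng/ml and IL-2 at 20 ng/ml. The same rabbit serum against T-bet was used in every precipitation, so the KO library serves as a control for what is recovered without T-bet. Its read depth is not stated, which limits what its short list can show. The labels do not describe the KO allele, and do not say whether mice were pooled or whether the WT replicates came from separate cultures. The WT group had 2 ChIP libraries and the KO group 1. The 3 input libraries were not analysed here. Peak lists carry no expression values, so the iTreg label could not be checked against marker genes.

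T-bet, encoded by Tbx21, is a T-box transcription factor that directs T helper 1 differentiation and is also made by a subset of regulatory T cells. Gfi1 encodes a zinc finger repressor of transcription that acts through its SNAG domain, which brings the histone demethylase LSD1 and its CoREST partners to DNA, and it is known in T cells for its part in development, in proliferation after activation and in the choice between effector fates. Evi5 encodes a protein with a TBC domain, the domain of Rab GTPase-activating proteins, which has roles in the cell cycle and in membrane traffic. Both genes were first found through retroviral insertions in T-cell tumours, where proviruses can activate nearby genes.

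In the RefSeq gene order of assembly GRCm38.p6, Gfi1 and Evi5 are neighbouring protein-coding genes, with the long noncoding RNA gene Gm42147 between them. The order across the region runs Rpap2, A930041C12Rik, 4930428O21Rik, Gfi1, Gm42147, Evi5, Ube2d2b, Gm42149 and Rpl5. Rpap2 encodes a phosphatase of RNA polymerase II, Ube2d2b a ubiquitin-conjugating enzyme and Rpl5 a protein of the large ribosomal subunit. The peaks are in mm9 and no mm9 annotation was used, so no peak is assigned here to a promoter, exon, intron or gene, and a peak named with this locus is not thereby shown to belong to either gene.

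The sequence under the peaks was not analysed here. For the start sites of the gene that gives the locus its name, the RefSeq promoter table of GRCm38.p6 holds 2 windows for Gfi1 and 1 for Evi5, each reaching from 250 bases before a start site to 50 after it. They are shown because a T-box protein was precipitated and its letters can be looked for in them. The 250 bases before each Gfi1 start are printed 5′ to 3′ on the minus strand, the strand of the gene; capitals mark the letters CACACC, the core of the T-box half-site. These positions are in GRCm38.p6 and must not be compared with the mm9 positions of the peaks.
Gfi1 first start, chr5:107725806-107726055: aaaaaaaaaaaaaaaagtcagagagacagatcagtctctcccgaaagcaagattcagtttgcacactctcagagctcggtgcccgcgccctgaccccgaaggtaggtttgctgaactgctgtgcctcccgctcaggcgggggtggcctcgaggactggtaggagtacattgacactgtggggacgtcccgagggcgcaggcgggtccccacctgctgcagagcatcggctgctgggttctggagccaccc
Gfi1 second start, chr5:107724344-107724593: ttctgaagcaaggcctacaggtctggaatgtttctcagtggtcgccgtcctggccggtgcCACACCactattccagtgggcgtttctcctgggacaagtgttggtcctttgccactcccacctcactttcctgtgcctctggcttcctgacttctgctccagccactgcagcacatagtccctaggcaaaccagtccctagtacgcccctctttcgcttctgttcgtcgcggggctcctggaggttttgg

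Both strands of the full windows were searched for the T-box letters TCACACC, for their core CACACC, which every TCACACC also holds, and for AATCACT, part of the known binding site of Gfi1 itself. The second Gfi1 window held CACACC 1 time, at position -190 from the start site. The first Gfi1 window and the Evi5 window held it 0 times. The longer T-box letters and the Gfi1 letters had 0 matches in all 3 windows. Among 32851 promoter windows of the same length, 3.98% held TCACACC, 19% held CACACC and 3.18% held AATCACT. These are matches of letters only. Whether a peak falls in any of the 3 windows was not examined, because the peaks are in mm9.

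All 13 peaks lay in the middle of the locus. The 9 replicate 1 peaks reached from 108154531 to 108208112, a span of 53.6 kb that takes up 22.3% of the stretch, and the 4 replicate 2 peaks fell within 47.8 kb of it. No list had a peak in the first 74.5 kb or in the last 112 kb. Just outside the limits, replicate 1 had a peak 1.90 kb before the start (108077857 to 108078098, score 145) and another 9.40 kb after the end (108329397 to 108329603, score 236), and neither met a peak of another list. Outside the locus, the nearest replicate 2 peaks were 200 kb before it, with a score of 98.9, and 2.02 Mb after it, with a score of 97.0.

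**Figure D1:**
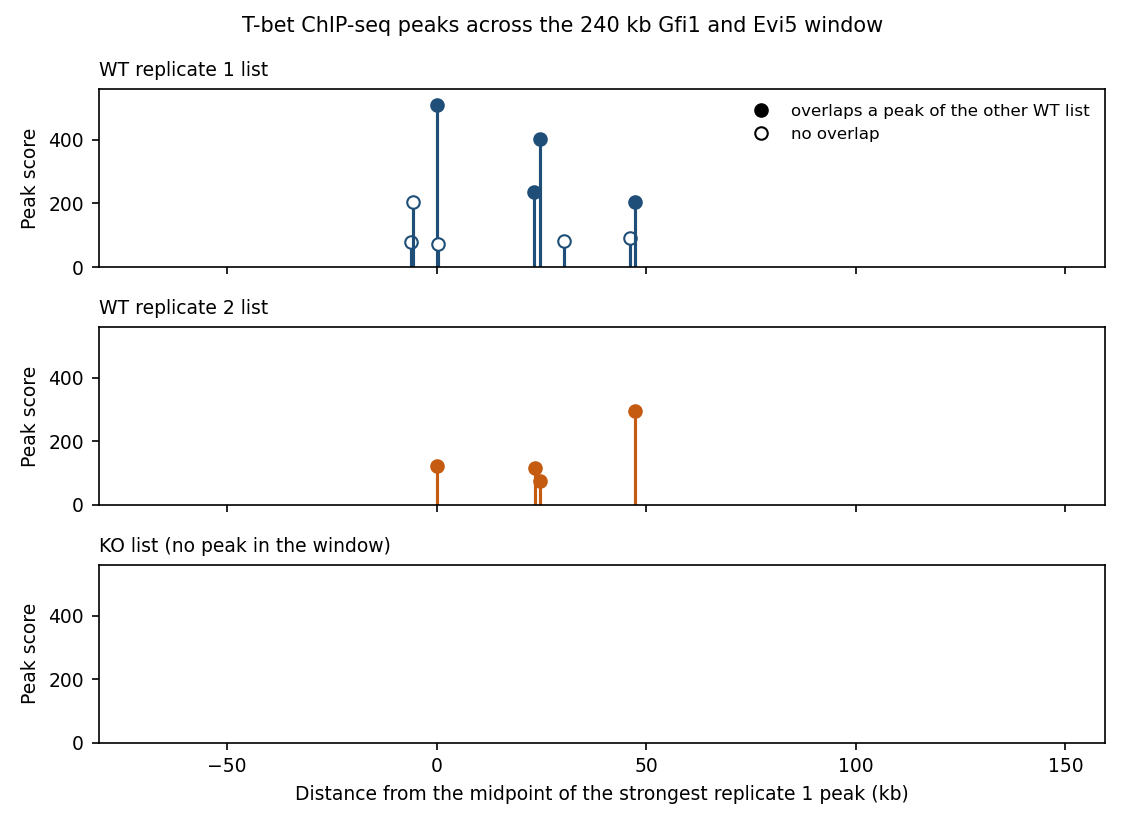
Score of each peak (vertical axis) against the distance in kb from the midpoint of the strongest replicate 1 peak (horizontal axis), 1 panel per list, over the 240 kb locus; filled circles overlap a peak of the other WT list and open circles do not. The 9 replicate 1 and 4 replicate 2 peaks stand within 53.6 kb and the KO panel is empty; score heights compare peaks within a panel only.

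Both WT lists held a peak at 4 sites, numbered here in order along the chromosome. The score is the value that MACS, the authors' peak caller, gave each peak; the sources give no scale for it. No peak of the WT lists scored under 70.10, and the score ranks peaks within a list only. Site 1 was the strongest of the locus in replicate 1, from 108160400 to 108160849, with a score of 511 (rank 165 of 7996). In replicate 2 the peak at site 1 ran from 108160396 to 108160899 and scored 124 (rank 335 of 851). It stood therefore among the top peaks of replicate 1 and nearer the middle of replicate 2.

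Site 2 lay 23.0 kb further on, from 108183802 to 108184114 in replicate 1 with a score of 236 (rank 985), and from 108183771 to 108184167 in replicate 2 with a score of 116 (rank 378). Site 3 followed 1003 bp after site 2, from 108185118 to 108185545 in replicate 1 with a score of 402 (rank 298). Its replicate 2 peak, from 108185124 to 108185337, had a score of 75.6 (rank 760), the lowest of the 4 in that list and close to the list's lower limit. Sites 2 and 3 were thus a close pair in both libraries, with site 3 the higher in replicate 1 and site 2 the higher in replicate 2.

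Site 4 lay 22.3 kb beyond site 3, from 108207818 to 108208112 in replicate 1 and from 108207792 to 108208155 in replicate 2. Its replicate 1 score of 205 (rank 1321) was the lowest of the shared sites in that list. Its replicate 2 score of 294 (rank 44) was the highest of the locus in replicate 2, and rank 1 among the 36 replicate 2 peaks of chromosome 5. The order of the 4 sites by score therefore differed between the libraries: 1, 3, 2, 4 in replicate 1 and 4, 1, 2, 3 in replicate 2. With 1 score per library and site, this difference in order has no error and was not tested.

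**Figure D2:**
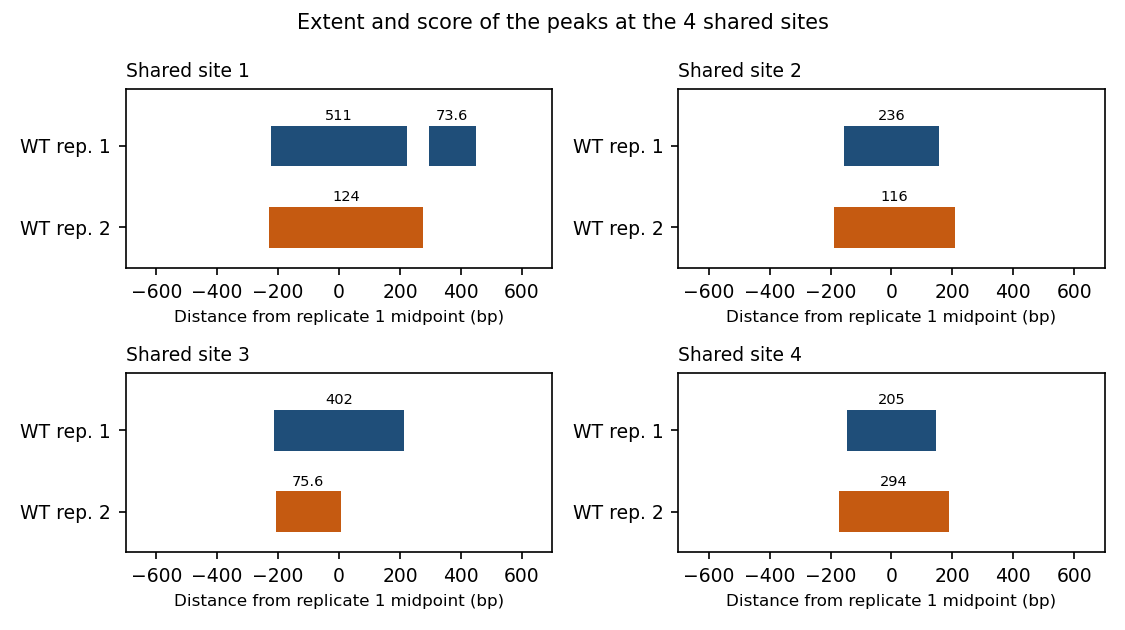
Extent of each peak as a bar, in bp from the replicate 1 midpoint (horizontal axis), for WT replicates 1 and 2 (rows) at the 4 shared sites, with the score above each bar. The replicate 2 bar encloses the replicate 1 bar at sites 1, 2 and 4, and covers only its left side at site 3.

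The peaks of the WT libraries coincided closely at sites 1, 2 and 4. There the replicate 1 peak lay wholly inside the replicate 2 peak, with overlaps of 450, 313 and 295 bp, and the midpoints were 23.0, 11.0 and 8.5 bp apart. At site 3 the relation was the other way round: the replicate 2 peak of 214 bp lay wholly inside the replicate 1 peak of 428 bp and covered 50.0% of it, and the midpoints were 101.0 bp apart. The shared sites were wide for their lists in replicate 1, at 295 to 450 bp against a median of 175 bp over the list. In replicate 2 they were 214 to 504 bp wide, around that list's median of 353 bp.

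The share of a list with a higher score puts both libraries on a scale of ranks. At site 1, 2.05% of the replicate 1 list and 39.2% of the replicate 2 list scored higher. The shares were 12.3% and 44.3% at site 2, and 3.71% and 89.2% at site 3. Site 4 alone of the locus stood higher in replicate 2, with 5.05% of that list above it against 16.5% of replicate 1. Over all 760 pairs of overlapping WT peaks in the series, 82.5% were placed higher in replicate 1, so sites 1 to 3 followed the more common order and site 4 did not. The replicate 1 list was longer, which bears on this share, and pairs that share a replicate 2 peak are counted more than once.

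**Figure D3:**
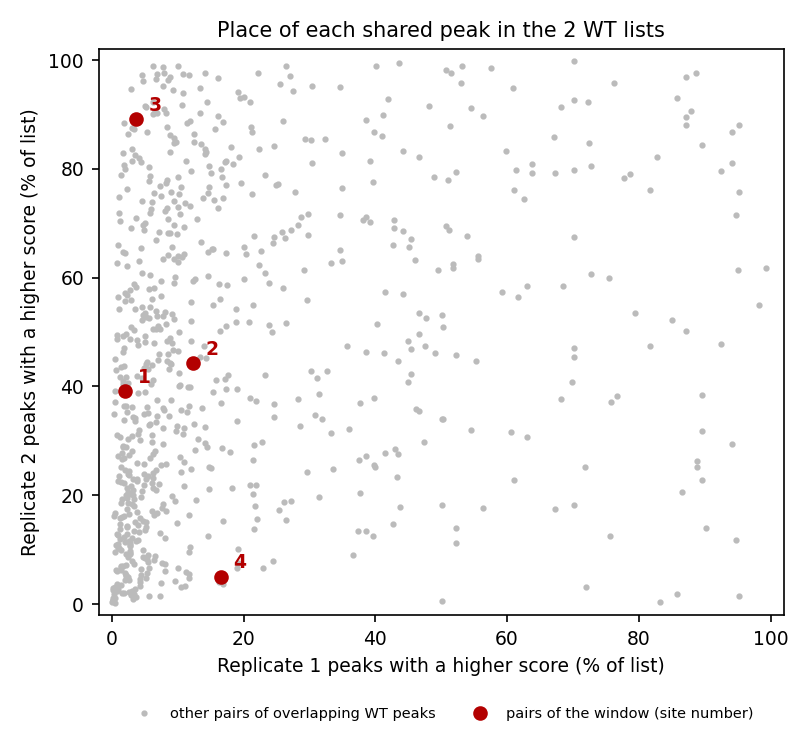
Share of the replicate 1 list (horizontal axis, %) and of the replicate 2 list (vertical axis, %) with a higher score, for every pair of overlapping WT peaks (grey) and for the 4 sites of the locus (red, numbered). Points near 0 are the strongest peaks; site 4 lies at 16.5% and 5.05%, and site 3 at 3.71% and 89.2%.

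Every replicate 2 peak of the locus had a replicate 1 counterpart, 4 of 4, where 85.4% of the whole replicate 2 list had one. In the other direction 4 of 9 replicate 1 peaks met a replicate 2 peak, or 44.4% (exact 95% binomial interval 13.7 to 78.8%, counting error only), where 9.50% of the whole replicate 1 list did. Since the locus was picked with these peaks known, nothing is read from these shares. When replicate 1 was reduced to its 851 highest peaks, the length of the replicate 2 list, sites 1 and 3 remained and 50.0% of the replicate 2 peaks had a counterpart.

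The other 5 replicate 1 peaks had no replicate 2 counterpart. The highest of them, from 108154775 to 108155027, scored 204 (rank 1360), just under the 205 of site 4. It opened the group together with a weaker peak 100 bp before it, from 108154531 to 108154674, with a score of 80.1. The nearest replicate 2 peak, that of site 1, was 5.37 kb away from the stronger of this pair. A peak that scored nearly the same as site 4 in replicate 1 was therefore missing from the replicate 2 list, while site 4 was that library's strongest peak here. Over the whole replicate 1 list, 17.1% of peaks scoring from 200 to under 250 met a replicate 2 peak, so a missing counterpart was usual.

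The remaining 3 unmatched peaks were weak, and 143 to 167 bp wide against a median of 175 bp over the list. The peak from 108160920 to 108161073, with a score of 73.6, stood 70 bp past the end of the site 1 peak and 20 bp past the end of the replicate 2 peak there, so it missed an overlap by little. The peak from 108206588 to 108206754, with a score of 90.1, stood 1063 bp before site 4. The peak from 108190959 to 108191101, with a score of 81.4, was the only 1 of the 9 with no other replicate 1 peak within 1500 bp. Over the whole replicate 1 list, 20.5% of peaks had another that close; this distance was set after the spacing had been seen.

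Within the locus the matched and unmatched replicate 1 peaks did not overlap in score, at 205 to 511 against 73.6 to 204, but the gap between 204 and 205 was small beside either range. The medians were 319 and 81.4. Over the whole replicate 1 list, the share met by replicate 2 was 2.23% (1.76 to 2.78%) for scores from 70 to under 100, a class that held 4 of the locus's peaks, of which 0 were met. It was 17.1% (13.9 to 20.6%) for scores from 200 to under 250, which held 3, of which 2 were met: sites 2 and 4. It was 58.5% (52.7 to 64.2%) for scores of 400 and over, which held sites 1 and 3. All 4 matched peaks of the locus thus scored above 200 in replicate 1, and the 4 peaks under 100 were unmatched.

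**Figure D4:**
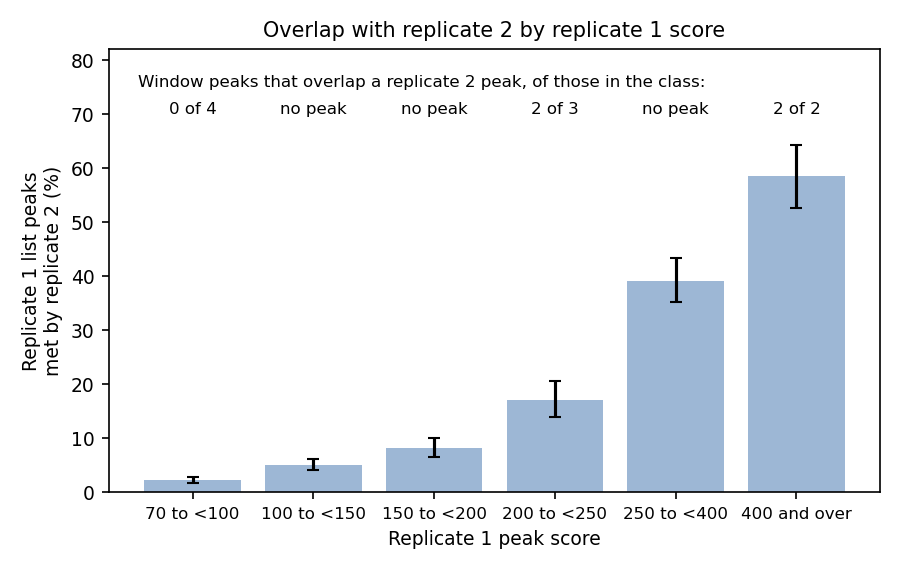
Bars give the share of all replicate 1 peaks that overlap a replicate 2 peak (vertical axis, %) by class of replicate 1 score (horizontal axis), with exact 95% binomial intervals over peaks; the text above each bar gives the peaks of the locus in that class. The share was 2.23% in the lowest class and 58.5% in the highest, and the 4 matched peaks of the locus fall in the classes from 200 to under 250 and from 400.

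No KO peak lay in the locus, and none of the 13 WT peaks met one. Over the whole lists, 0.550% of replicate 1 and 5.41% of replicate 2 peaks overlapped a KO peak, so the lack of KO peaks at these sites is the usual state. The KO list held 4 peaks on chromosome 5. The nearest, from 89965157 to 89965289 with a score of 113, lay 18.1 Mb before the locus and met a peak in both WT lists. The other 3 lay together 93.1 Mb away, with scores of 70.8 to 75.2. The KO list gives called peaks and no read counts, so signal below the caller's limit at the 4 sites was not measured, and with 1 KO library WT was not tested against KO.

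The locus was dense in peaks compared with its chromosome, but it was picked with these peaks known, so the ratios only describe it. Replicate 1 had 37.5 peaks per Mb in it and 2.81 per Mb over chromosome 5, a ratio of 13.3. Replicate 2 had 16.7 and 0.236 per Mb, a ratio of 70.6. Over chromosomes 1 to 19 and X, the ratios were 12.4 in replicate 1 and 51.7 in replicate 2. The 4 replicate 2 peaks were 11.1% of the 36 that this library had on chromosome 5, and the 9 replicate 1 peaks were 2.10% of its 429. Peaks covered 2.35 kb of the locus in replicate 1 and 1.48 kb in replicate 2.

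Set among all stretches of its length, the locus was uncommon in its number of peaks without being extreme. It was picked with its peaks known, whereas the windows of a grid can split other groups of peaks. Its standing among them is therefore a description that depends in part on how it was chosen. Chromosomes 1 to 19 and X hold 10979 windows of 240 kb on a grid that includes this one. Most of these had no peak: 3366 held any replicate 1 peak and 607 any replicate 2 peak. Of all 10979, 84 windows (0.765%) had at least 9 replicate 1 peaks and 26 (0.237%) at least 4 replicate 2 peaks. These shares count the empty windows too. Both conditions were met by 15 windows, 13 of them with no KO peak. The fullest windows held 26 replicate 1 and 7 replicate 2 peaks. Among the 635 windows of chromosome 5, this was the only 1 with as many replicate 1 peaks and the only 1 with as many replicate 2 peaks; on a grid from the first base of each chromosome, 2 windows of chromosome 5 reached each number. No KO peak was found in 99.5% of the windows.

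**Figure D5:**
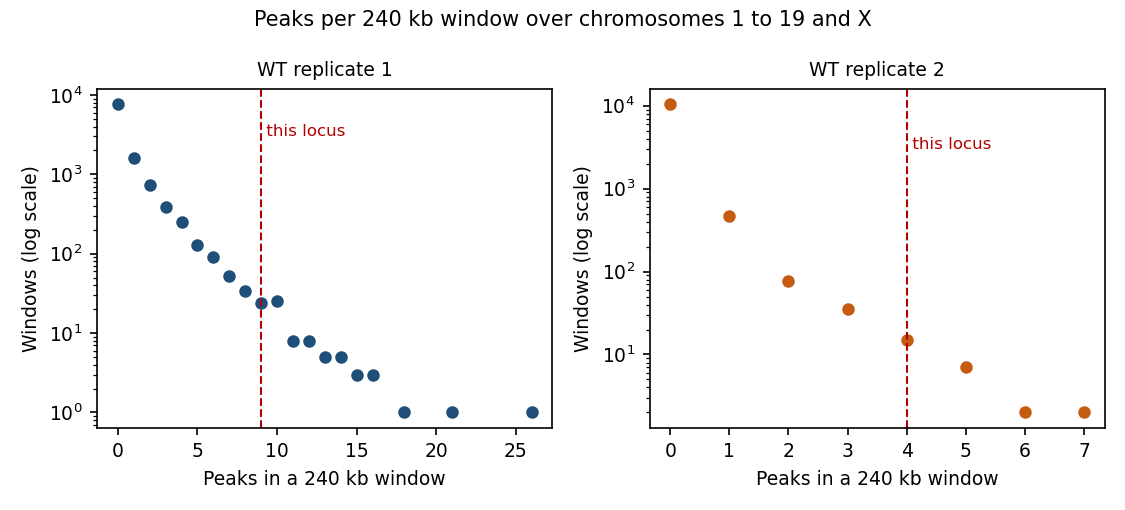
Number of 240 kb windows (vertical axis, log scale) by the number of peaks they hold (horizontal axis) in WT replicates 1 and 2; dashed lines mark the Gfi1 and Evi5 locus, and counts with no window are not drawn. The locus stands at 9 and 4 peaks, with windows of up to 26 and 7 peaks to its right.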

How the data were processed

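Peak positions and the score of each peak were used as the authors deposited them, in 1 list per ChIP library with 5 columns and no header. CASAVA, Bowtie2, MACS 1.4 and the build mm9 are named in the submitters' processing notes; for the settings, filters, control and read depth of each call, nothing is stated in those sources. Starts were raised by 1 to count from 1. Overlap meant at least 1 bp in common. Chromosome lengths came from GenomeInfoDb 1.38.1 (R 4.3.3), promoter sequences and gene order from RefSeq, and intervals from the exact binomial method. Overlap counting was checked on simulated peaks. All peaks of the locus are accounted for, shared sites in full and the others by score and position. The locus, its members and the lists were chosen with earlier results of these data known. The planned counts around Gfi1 cofactor genes and neighbouring genes need an mm9 annotation and were not run. Computation ran in Python 3.11.15 (scipy 1.17.1), and plots were drawn with matplotlib 3.10.9.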

Additional observations from a re-analysis of the deposited data

How the results depend on the processing

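Of 45 alternative values, 40 stayed within bounds: 1.5 times the main value for counts and ratios, and its exact 95% binomial interval for shares. That interval is wide for few peaks: replicate 2 peaks of the locus with a replicate 1 counterpart fell from 100% to 50.0% with replicate 1 reduced to the length of the replicate 2 list, and still lay within 39.8 to 100%. The other 5 went past these bounds. These were the count of replicate 1 peaks scoring at least 100 and the count without a KO peak with replicate 2 left out. The medians on chromosome 5 in both libraries and the count of neighbours within 1000 bp were the others. Some of the 40 could not have gone past the bounds. The KO counts stayed at 0 because the nearest KO peak lay 18.1 Mb away. Narrowing the window by 20 kb could not remove a WT peak, because its first 74.5 kb and last 112 kb held none. The 4 shared sites were also 4 with a reciprocal overlap of at least 50%, with midpoints within 250 bp, with peaks within 500 bp joined, and with the window narrowed by 20 kb or widened by 50 kb on each side, and 3 with scores of at least 100, which removes the replicate 2 peak of site 3. Scores of at least 100 left 5 of the 9 replicate 1 peaks. None of the 4 shared sites had a KO peak. With replicate 1 left out, all 4 replicate 2 peaks were counted, and with replicate 2 left out, all 9 replicate 1 peaks. The 9 are peaks of 1 list, matched or not, rather than shared sites. The median share of the list scoring higher than the peaks of the locus was 17.0% in replicate 1 and 41.8% in replicate 2. On chromosome 5 alone it was 13.5% and 26.4%. The bound for these medians treated each as a proportion of the whole list. It does not measure their spread over the few peaks of the locus. With a distance of 1000 bp, added after seeing the data, 4 rather than 8 replicate 1 peaks had a neighbour, against 17.4% of the list. No paired analysis was possible because the results come from no test and the KO group has 1 library. The unknown depth limits what a missing peak shows.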
